A study of Mus musculus with 9 samples.

Results

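The genes described here are 31 genes by which a mature T cell is recognised and through which its antigen receptor signals: the CD3 and receptor constant chains, the CD8 and CD4 coreceptors, the proximal signalling proteins, accessory and costimulatory receptors, and transcription factors of the lineage, of naive cells and of regulatory cells. They were taken as the entries of the count table whose Ensembl identifiers carry those symbols, a rule that uses no measured value although the list was drawn up with earlier results of these data known, and all 31 were found among 55359 genes. Of these, 30 passed the filter on low counts and stood among the 17123 genes tested. The exception was Ptprcap, which encodes a protein associated with the phosphatase CD45 and had 1 read in PBS 3 and none in the other libraries. It shares 26.8% of its exon bases with Coro1b on the same strand, and 1224 of 1611 with Rps6kb2 on the other. Its count is therefore uncertain.

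RNA was sequenced from the omentum, a fatty fold of the peritoneum that holds lymphoid clusters, of C57BL/6 mice aged 7 to 10 weeks at tumour injection. Every mouse, controls included, had received 500000 B16-OVA cells, a melanoma line expressing ovalbumin, into the peritoneal cavity on day 0. On day 6 the PBS group received saline, by a route the labels do not state, and the other groups received ovalbumin-specific OT-I T cells electroporated with mRNA for IL-12, into the peritoneum (IP) or into a vein (IV). Omenta were taken 18 h after the T cells, from 3 mice a group, named here by the mouse numbers of the labels: PBS 1, 2 and 3, IP 2, 3 and 4, and IV 1, 2 and 4. Transferred cells without the IL-12 mRNA were not among the groups, so transfer and IL-12 cannot be told apart, and host and transferred T cells are read together.

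An alpha-beta T cell recognises peptide on MHC molecules through a pair of receptor chains that have no signalling tails of their own. The CD3 chains and CD247 (the zeta chain) carry the phosphorylation motifs, the kinase Lck, bound to CD8 or CD4, phosphorylates them, and ZAP70 docks there and phosphorylates the scaffold LAT. CD8 marks cells that see class I MHC, which includes OT-I cells, and CD4 marks helper and most regulatory cells, the latter defined by the transcription factor FOXP3. TCF7 and LEF1 are transcription factors of naive and memory cells, and strong antigen stimulation is known to lower both.

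Totals ran from 7379798 counts in IV 2 to 44626843 in PBS 3, and between 5561 and 31500 of the counts of a library fell on the 31 genes. Several libraries stood apart from their group. Across genes, log2 levels of IV 4 correlated more closely with PBS 3 (r = 0.9815) than with IV 1 (0.9484) or IV 2 (0.9531), which is a description over genes that are not independent. Transcripts of pancreatic acinar cells took 2.92% of the counts in IV 1, 2.14% in IP 4 and 0.557% in IV 2, and at most 0.0281% in the other 6 libraries. Among the 30 tested genes, PBS 1 was the lowest PBS library for all 30 and PBS 3 the highest for 29, while IV 1 was the lowest IV library for all 30. The IP libraries were closer to each other, with IP 3 the lowest for 20 genes. Fewer T cells and less RNA per cell cannot be told apart in such tissue libraries. Whether library composition took part in any result was not tested, and counts of these genes in IV are given with and without IV 4.

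RefSeq promoter windows, 250 bases before to 50 after an annotated start on GRCm38.p6, were at hand for 18 of the 31 genes (27 windows). The 4 shown belong to CD3 chains that rose by both routes, to Cd8a, which rose in the IP group, and to Foxp3, which passed the test in no comparison. Capitals mark letters of 4 motifs searched on both strands, none of which contains another: the RUNX motif TGTGGT, the TCF/LEF motif CTTTGA, the ETS motif AGGAAG and the AGATAA motif of GATA factors.
Cd3d, chr9:44981536-44981835, plus strand: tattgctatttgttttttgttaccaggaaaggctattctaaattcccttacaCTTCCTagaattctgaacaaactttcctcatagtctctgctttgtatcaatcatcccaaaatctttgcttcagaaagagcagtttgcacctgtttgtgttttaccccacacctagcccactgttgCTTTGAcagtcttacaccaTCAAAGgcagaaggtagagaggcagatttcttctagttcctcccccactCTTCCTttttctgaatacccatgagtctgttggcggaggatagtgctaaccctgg
Cd3e, chr9:45009562-45009861, minus strand: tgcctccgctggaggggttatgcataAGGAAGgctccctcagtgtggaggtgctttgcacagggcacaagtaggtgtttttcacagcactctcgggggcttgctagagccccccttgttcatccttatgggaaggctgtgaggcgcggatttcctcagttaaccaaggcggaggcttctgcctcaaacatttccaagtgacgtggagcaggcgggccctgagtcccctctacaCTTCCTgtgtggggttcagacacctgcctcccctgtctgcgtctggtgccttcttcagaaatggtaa
Cd8a, chr6:71373177-71373476, plus strand: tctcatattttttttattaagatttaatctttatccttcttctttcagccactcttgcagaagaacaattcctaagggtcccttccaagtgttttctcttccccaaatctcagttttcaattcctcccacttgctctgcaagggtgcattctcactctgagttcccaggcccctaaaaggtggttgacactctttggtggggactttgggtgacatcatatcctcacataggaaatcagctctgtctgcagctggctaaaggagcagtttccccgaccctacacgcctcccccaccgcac
Foxp3, chrX:7580233-7580532, plus strand: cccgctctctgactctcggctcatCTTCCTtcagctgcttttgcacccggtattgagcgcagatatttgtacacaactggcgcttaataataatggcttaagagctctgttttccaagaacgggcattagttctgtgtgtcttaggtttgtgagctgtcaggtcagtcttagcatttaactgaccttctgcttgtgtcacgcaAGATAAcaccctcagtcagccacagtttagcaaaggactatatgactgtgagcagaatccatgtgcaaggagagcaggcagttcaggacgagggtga
The Cd3d window held 2 ETS and 2 TCF/LEF matches and the Cd3e window 2 ETS matches. The Cd8a window held none of the 4, and the Foxp3 window printed held 1 ETS and 1 GATA match, while another Foxp3 window held none. Over the members, AGGAAG was found in 13 of 27 windows, or 48.1%, and in 35.4% of all 32851 promoter windows. TGTGGT and CTTTGA were each found in 5 of 27, or 18.5%, beside 16.8% and 16.0% of all windows, and AGATAA in 4, or 14.8%, beside 11.2%. A match is a run of letters, not a bound site.

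After IP transfer most of the T cell genes were higher, the CD8, CD3 and signalling genes among them. By edgeR's quasi-likelihood test, 21 of 30 rose against PBS and none fell, beside 18.7% of all tested genes called higher and 14.2% called lower. Cd4 was the 1 gene lower at an unadjusted p under 0.05, and DESeq2 and limma voom called none lower. The 9 that did not pass were Cd4, Foxp3, the naive and memory markers Tcf7, Lef1 and Il7r, and Trac, Cd2, Cd96 and Gata3. The median log2 fold change of the 30 was 1.64, beside 0.02 over all genes. IP values lay wholly above PBS values for 25 genes and wholly below for 1 (Cd4), beside 28.4% and 24.8% of all genes. With no filter on low counts 11 rose, and 10 genes were called under every alternative setting run: Cd3d, Cd3e, Cd247, Trbc2, Zap70, Lat, Themis, Cd28, Icos and Thy1.

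After IV transfer a similar number of T cell genes was higher, with a wider spread between mice. By the same test 20 of 30 rose against PBS, with a median log2 fold change of 1.45 beside 0.04 over all genes, where 10.4% of all genes were called higher. None fell, by edgeR with or without adjustment, DESeq2 or limma voom, beside 5.66% of all genes. IV values lay wholly above PBS values for 15 genes and wholly below for none, beside 16.5% and 13.6% of all genes. The count rested on single libraries: it was 11 without IV 4 (13.2% of all genes called higher), 4 without IV 2 (5.64%), 5 without PBS 1 (4.37%) and 7 without PBS 2 (5.81%). Without IV 1 it was 29 (9.18%), and only Lef1 missed the threshold (adjusted p = 0.0614). The 11 called without IV 4 were Cd3d, Cd3g, Cd247, Trbc2, Lck, Lat, Skap1, Sh2d1a, Cd2, Gata3 and Tcf7. No gene was called under every setting run. However, the setting without the acinar-rich libraries left IV 4 as the only IV library, so it cannot show whether a call is stable. Trbc2, Lat and Skap1 lost their IV calls under that setting alone. IP and IV share the PBS controls, so the likeness of their counts is not independent.

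Set against each other, the routes differed in few of these genes, as they did in few of all tested genes. Thy1 was higher in IP, beside 5.93% of all genes, and Cd4 and Tcf7 were lower, beside 4.47% of all genes. The other 27 missed the threshold, which does not show that they were alike. IP values lay wholly above IV values for 5 genes and wholly below for 2, beside 17.9% and 13.5% of all genes. Without IP 2 or without IP 3, Thy1 and Cd4 lost their calls, and without IP 2 or without IP 4, Tcf7 did. Without IV 4, Cd28 and Icos were called higher in IP as well.

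**Figure D1:**
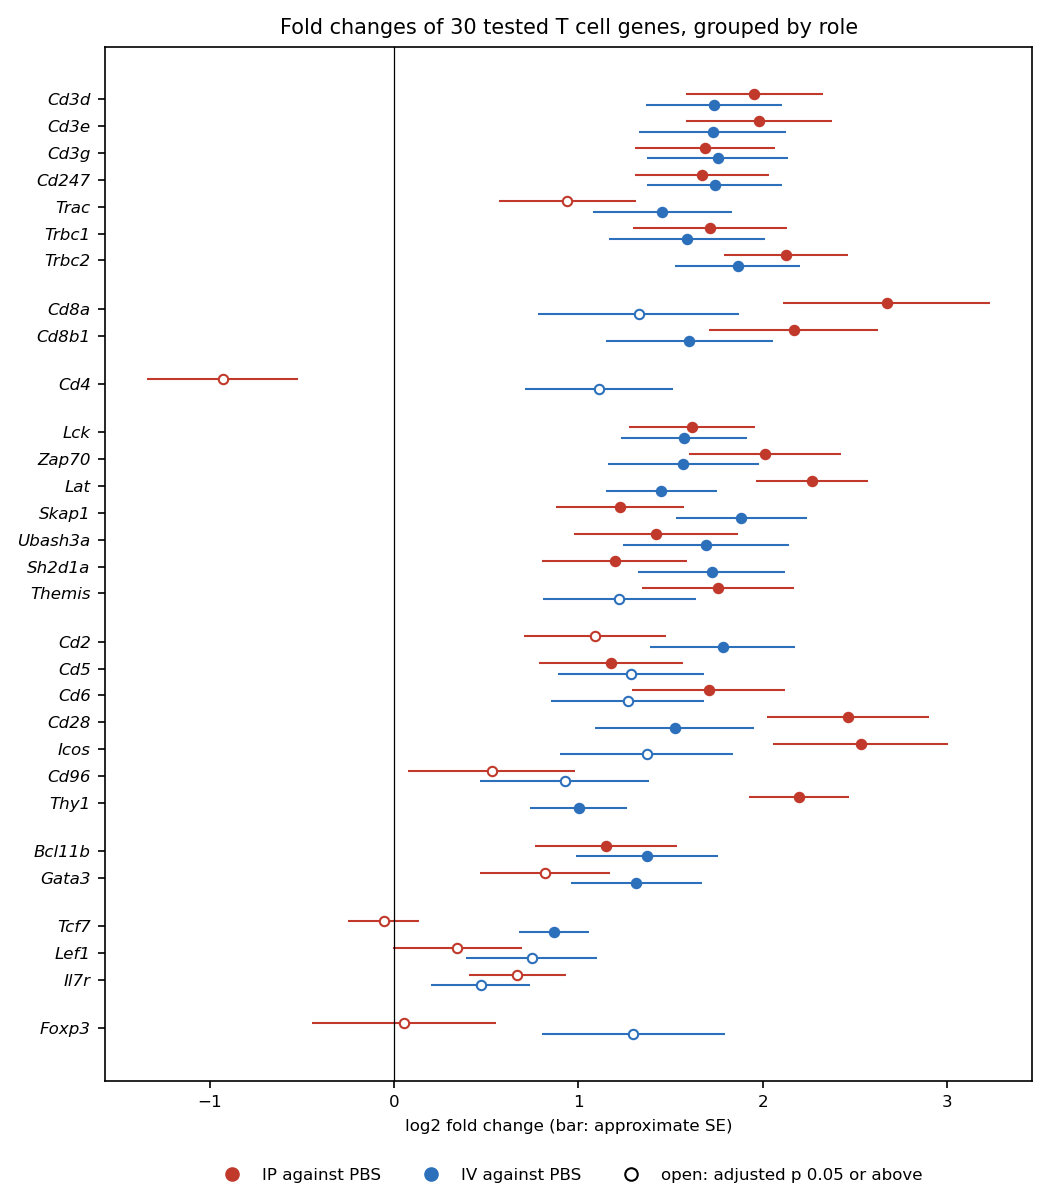
Log2 fold changes of the 30 tested T cell genes against PBS, IP in red and IV in blue, with an approximate standard error as a bar; filled points have an adjusted p under 0.05. The CD3 chains sit near each other for both routes, while Cd4 and Tcf7 stand left of 0 for IP and right of it for IV.

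The CD3 chains, which assemble with the receptor and carry its signal, rose by both routes. Cd3e was 3.74, 4.22 and 9.57 TMM-scaled CPM in PBS 1, 2 and 3, then 24.5, 21.5 and 23.7 in IP 2, 3 and 4, and 10.0, 24.0 and 24.9 in IV 1, 2 and 4. All treated libraries were above all PBS libraries, although IV 1 exceeded PBS 3 by little. The log2 fold change was 1.98 ± 0.40 (SE) for IP (adjusted p = 0.00322) and 1.73 ± 0.40 for IV (0.0169), and the latter was 1.48 without IV 4 (0.0529). Cd3d was 4.31, 10.2 and 11.1 CPM in PBS, 36.5, 31.4 and 31.5 in IP, and 16.1, 40.4 and 29.8 in IV. Its rise was 1.95 ± 0.37 for IP and 1.73 ± 0.37 for IV, and was called for IV without IV 4 too (adjusted p = 0.0370). Cd3g, with 8.80 ± 3.36 (SD, n = 3) CPM in PBS, averaged 28.3 ± 1.72 in IP and 30.04 ± 14.8 in IV. Cd247, the zeta chain, went from 4.95 ± 1.29 to 15.8 ± 1.29 and 16.7 ± 8.21 CPM. Both rose by both routes, by 1.67 to 1.75 on the log2 scale. Between routes the 4 chains differed by −0.07 to 0.25 with standard errors of 0.35 to 0.38, so a difference of about the size of the error could not be seen.

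The constant regions of the receptor itself did not move in step with each other after IP transfer. Trbc2, a beta chain constant region, was 5.16, 9.52 and 9.53 CPM in PBS, 42.3, 31.6 and 31.6 in IP and 16.9, 43.8 and 28.6 in IV. It rose by 2.12 ± 0.34 in IP (adjusted p = 0.000794) and 1.86 ± 0.34 in IV (0.00612), with no overlap with PBS by either route. Trbc1 rose by 1.71 ± 0.42 and 1.59 ± 0.42, the IV call being lost without IV 4 (0.0605), and since the 2 beta regions are nearly identical in sequence, reads may have been split between them. Trac, the alpha constant region, was 5.84, 12.3 and 17.4 CPM in PBS, 23.1, 21.04 and 24.1 in IP, and 18.3, 40.4 and 39.4 in IV. Its IP libraries were above PBS but the difference of 0.94 ± 0.37 missed the threshold (adjusted p = 0.0771), while it rose in IV (1.45 ± 0.38, 0.0264), a call lost without IV 4 (0.0820). Per kilobase of exon, Trbc2 had the highest mean of the members after Thy1 in IP, at 50.8 ± 8.94 CPM per kb.

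**Figure D2:**
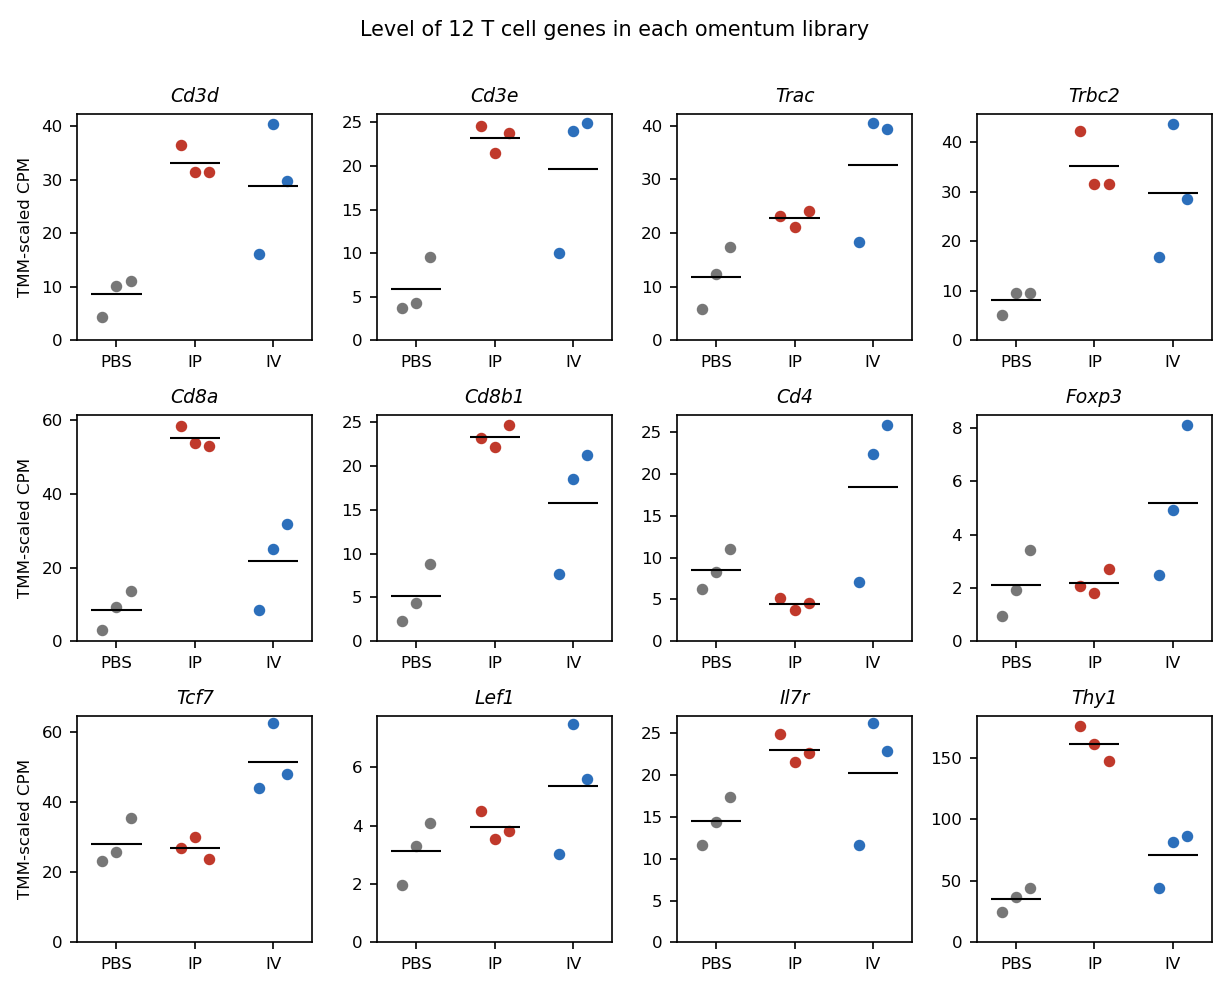
TMM-scaled CPM of 12 T cell genes in each library, by group, with a line at the mean of 3 mice. Cd8a and Thy1 are highest in the IP libraries, Cd4 is lowest there (3.68 to 5.14 CPM), and IV 1 is the lowest IV point in every panel.

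Both CD8 coreceptor transcripts rose in IP, and Cd8a had the largest fold change of the 30 genes there. Cd8a, the alpha chain, was 3.06, 9.17 and 13.6 CPM in PBS, 58.5, 53.8 and 52.8 in IP, and 8.55, 24.9 and 31.8 in IV. Every IP library exceeded every other library, while IV 1 lay inside the PBS range. Cd8a rose by 2.67 ± 0.56 in IP (adjusted p = 0.00557, but 0.0560 when low counts were kept). Its IV difference of 1.33 ± 0.55 missed the threshold (0.131), as it did without IV 4 (0.87, 0.381), but it passed without IV 1 (1.72, 0.0346). Cd8b1, the beta chain found on conventional CD8 T cells, was 2.32, 4.34 and 8.76 CPM in PBS, 23.1, 22.1 and 24.6 in IP, and 7.71, 18.5 and 21.2 in IV. It rose by 2.17 ± 0.46 in IP and by 1.60 ± 0.45 in IV (adjusted p = 0.00428 and 0.0374), the IV call being lost without IV 4 (0.130). For IP against IV, neither chain passed the test (Cd8a 1.34 ± 0.54, adjusted p = 0.153), although the values of the routes did not overlap.

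Cd4 went the other way from Cd8a in the IP group. It was 6.20, 8.29 and 10.98 CPM in PBS, 5.14, 3.68 and 4.55 in IP, and 7.09, 22.4 and 25.9 in IV. The IP libraries were all below PBS, IV 2 and IV 4 were above it, and IV 1 was within it. Against PBS the IP difference was −0.93 ± 0.41 (adjusted p = 0.109) and the IV difference 1.11 ± 0.40 (0.0865), and neither passed. Without IV 1 the IV difference was 1.51 and passed (0.00583). Between routes Cd4 was lower in IP by a log2 fold change of −2.04 ± 0.42 (0.0121), and by −1.67 without IV 4 (0.0320). That call was lost with no filter on low counts, by limma voom, and without IP 2 or IP 3, with adjusted p up to 0.0628 over the alternatives.

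The ratio of the coreceptors within a library needs no scaling between libraries. The log2 ratio of Cd8a plus Cd8b1 to Cd4 was −0.20, 0.70 and 1.03 in PBS, 3.99, 4.37 and 4.09 in IP, and 1.20, 0.96 and 1.03 in IV. IP libraries stood 3.64 above PBS and 3.09 above IV with no overlap, while IV, 0.55 above PBS, overlapped it. In exact two-sided permutation tests the former 2 had p = 0.1 and the last p = 0.2, and 0.1 is the smallest p that 3 against 3 can give. Over the 15 ratio comparisons made, the adjusted values were 0.125 and 0.231, so no ratio passed a threshold of 0.05.

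Proximal signalling genes rose nearly as a block, 7 of 7 in IP and 6 of 7 in IV (4 of 7 without IV 4), beside 18.7%, 10.4% and 13.2% of all genes called higher. Lat, the membrane scaffold, was 5.27, 8.75 and 9.74 CPM in PBS, 43.2, 35.3 and 35.8 in IP, and 12.7, 28.8 and 24.1 in IV. The 3 groups did not overlap, and Lat rose by 2.27 ± 0.31 in IP (adjusted p = 0.000278) and by 1.45 ± 0.30 in IV (0.0112, and 0.0249 without IV 4). Lck, the kinase that phosphorylates the CD3 chains, was 9.53, 18.3 and 21.4 CPM in PBS, 56.9, 44.6 and 49.7 in IP, and 26.5, 63.9 and 56.8 in IV. Its rise was about equal for the routes (1.62 ± 0.34 and 1.57 ± 0.34), both called. Zap70, the kinase recruited to phosphorylated CD3, was 3.25, 5.68 and 8.86 CPM in PBS, 25.2, 21.3 and 25.5 in IP, and 8.30, 20.1 and 24.7 in IV. It rose by 2.01 ± 0.41 in IP and 1.57 ± 0.41 in IV, but IV 1 lay below PBS 3 and the IV call was lost without IV 4 (adjusted p = 0.0878). Themis, a regulator of receptor signalling known from thymocyte selection, rose by 1.76 ± 0.41 in IP, and its IV difference of 1.22 ± 0.41 did not pass (0.0705).

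The remaining 3 of these genes had the larger estimate in IV, though no difference between the routes passed the test. Skap1, an adaptor linking the receptor to integrins, was 3.88, 5.30 and 7.50 CPM in PBS, 12.5, 11.7 and 14.9 in IP, and 10.6, 30.3 and 21.7 in IV. It rose by 1.22 ± 0.35 and 1.88 ± 0.36, and was called in IV without IV 4 as well (adjusted p = 0.0144). Sh2d1a, the adaptor SAP used by SLAM family receptors in T and NK cells, rose by 1.20 ± 0.39 in IP and 1.72 ± 0.40 in IV. Ubash3a, a negative regulator of receptor signalling, rose by 1.42 ± 0.44 and 1.69 ± 0.45, the IV call being lost without IV 4 (0.0662). Skap1, Sh2d1a and Ubash3a lost their IP calls under 5, 10 and 8 of 20 alternatives, so their IP rise was less stable than that of Lat or Zap70, which lost theirs under none.

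Among the surface receptors, the costimulatory pair Cd28 and Icos rose steeply in IP. Cd28, which gives the second signal for T cell activation, was 3.25, 4.15 and 5.83 CPM in PBS, 27.8, 25.3 and 20.2 in IP, and 4.98, 11.5 and 21.3 in IV. Icos, a related receptor induced on activated cells, was 1.53, 3.11 and 4.47 CPM in PBS, 20.2, 17.1 and 15.7 in IP, and 3.31, 7.20 and 12.9 in IV. Both were above PBS in every IP library, and in both IV 1 lay within the PBS range and IV 4 was the highest IV library. Cd28 rose by 2.46 ± 0.44 in IP (adjusted p = 0.00157) and 1.52 ± 0.43 in IV (0.0375, and 0.120 without IV 4). Icos rose by 2.53 ± 0.47 in IP (0.00215), while its IV difference was 1.37 ± 0.47 (0.0729), and 1.75 without IV 1 (0.0181). With all libraries the routes did not differ in either by the test, at 0.94 ± 0.42 (0.188) and 1.16 ± 0.46 (0.137). Without IV 4 they did, at 1.65 (0.0169) and 1.84 (0.0273).

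Thy1, a glycoprotein of T cells that fibroblasts and innate lymphoid cells carry too, was the most abundant member per kilobase in IP, at 54.0 ± 4.80 CPM per kb. It was 24.7, 37.2 and 43.9 CPM in PBS, 176, 161 and 148 in IP, and 44.0, 81.8 and 86.4 in IV. The 3 groups did not overlap, although IV 1 and PBS 3 were nearly equal. Thy1 rose by 2.20 ± 0.27 in IP (adjusted p = 0.000158) and 1.00 ± 0.26 in IV (0.0276, and 0.0676 without IV 4), and was higher in IP than in IV by 1.20 ± 0.26 (0.0164, and 0.0188 without IV 4). Summed over 8 stromal genes, fibroblast markers ran from 1263 to 2131 CPM in PBS, 2264 to 2582 in IP and 1352 to 1878 in IV. Of the 8, 2 were higher in IP than in PBS, beside 18.7% of all genes. Against IV, 2 were higher in IP, beside 5.93% of all genes, or 4 without IV 4, beside 9.71%. None of the 8 was at 0 in any library, and their part in the Thy1 result was not tested.

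Cd2, Cd5, Cd6 and Cd96 are further surface receptors. Cd2, an adhesion receptor of T and NK cells, was 5.76, 12.6 and 11.6 CPM in PBS, 22.6, 19.0 and 22.2 in IP, and 15.9, 51.6 and 36.5 in IV. It rose in IV (1.78 ± 0.39, adjusted p = 0.0139, and 0.0418 without IV 4) and just missed the threshold in IP (1.09 ± 0.38, 0.0508). Cd5 and Cd6, related scavenger-type receptors that tune receptor signalling, rose in IP by 1.18 ± 0.39 and 1.71 ± 0.41 (0.0406 and 0.00914). Their IV differences, 1.29 ± 0.40 and 1.27 ± 0.41, missed the threshold narrowly (0.0504 and 0.0627), and IP against IV neither passed. The Cd5 call in IP was lost under 10 of 20 alternatives. Cd96, an adhesion receptor of T and NK cells, was 1.37 to 3.41 CPM in PBS, 3.05 to 3.27 in IP and 1.71 to 5.91 in IV, and passed in no comparison.

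The lineage factor Bcl11b, needed for T cell commitment, averaged 2.62 ± 1.08 CPM in PBS, 5.86 ± 0.93 in IP and 6.84 ± 3.12 in IV. It rose by 1.15 ± 0.38 and 1.37 ± 0.39 (adjusted p = 0.0406 and 0.0365), and the calls were lost under 13 and 12 of 20 alternatives, the IV call without IV 4 among them (0.97, 0.0908). Gata3, a factor of T cell development and of type 2 helper and innate lymphoid cells, was 1.20, 2.03 and 2.28 CPM in PBS, 3.23, 3.77 and 2.76 in IP, and 2.69, 6.40 and 4.93 in IV. It rose in IV (1.31 ± 0.36, 0.0316, and 0.0476 without IV 4), and its IP difference was 0.82 ± 0.35 (0.101).

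None of the naive and memory markers passed in IP. Tcf7 was 23.1, 25.6 and 35.4 CPM in PBS, 27.0, 30.1 and 23.8 in IP, and 43.9, 62.4 and 47.9 in IV. PBS and IP overlapped fully (−0.06 ± 0.19, adjusted p = 0.849), and every IV library was above both. Tcf7 rose in IV by 0.87 ± 0.19 (0.0141, and 0.0116 without IV 4) and was lower in IP than in IV by a log2 fold change of −0.92 ± 0.19 (0.0129). In PBS its level per kilobase, 10.7 ± 2.47 CPM per kb, was above that of Cd3e, 1.43 ± 0.79, and of Cd3d, 4.71 ± 2.04. Lef1 was 1.97, 3.30 and 4.09 CPM in PBS, 4.51, 3.56 and 3.81 in IP, and 3.02, 7.47 and 5.59 in IV, with overlap throughout and no call. Il7r, the receptor chain for the survival cytokine IL-7, was 11.7 to 17.4 CPM in PBS, 21.6 to 25.0 in IP and 11.7 to 26.3 in IV. Its IP values were above PBS but the difference of 0.67 ± 0.26 did not pass (0.0771).

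Foxp3, the defining factor of regulatory T cells, was a low transcript. It was 0.96, 1.92 and 3.43 CPM in PBS, 2.07, 1.82 and 2.696 in IP, and 2.47, 4.94 and 8.13 in IV. IP values lay inside the PBS range, while IV 2 and IV 4 were above it. The differences were 0.05 ± 0.50 for IP (adjusted p = 0.946) and 1.30 ± 0.50 for IV (0.102). The IV value fell to 0.74 without IV 4 (0.304) and was 1.65, just under the threshold (0.0450), without IV 1. The IV difference passed under 4 of 20 alternatives. The others were without PBS 3, with the replicate number as a block, and with counts thinned to the shallowest library. Foxp3 shares exon bases with the noncoding gene Flicr and, on the other strand, with Ppp1r3f and Ccdc22, so its counts are uncertain.

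Setting each gene against the summed counts of Cd3d, Cd3e and Cd3g of the same library separates the subset markers from the amount of T cell receptor transcript. In IP the log2 ratio to CD3 was above PBS without overlap for 3 of the other 27 members, Cd8a (by 0.96), Icos (0.70) and Lat (0.35), beside 3.58% of all genes. It was below for 13 of 27, beside 83.4% of all genes, which fall against CD3 since that denominator rose. The lowest were Cd4 (−2.87), Tcf7 (−2.00), Foxp3 (−1.73) and Lef1 (−1.56), followed by Cd96, Il7r, Gata3, Trac, Cd2, Sh2d1a, Cd5, Skap1 and Lck (−0.27). In IV no member was above PBS and 9 of 27 were below, beside 1.06% and 57.3% of all genes. Between routes 5 members were above in IP (Cd8a, Cd8b1, Icos, Lat and Thy1) and 10 below, beside 3.77% and 10.7% of all genes.

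The same ratio gives each subset marker in every mouse. Log2 Foxp3 to CD3 was −3.77, −3.69 and −3.21 in PBS, −5.46, −5.47 and −4.93 in IP, and −4.03, −4.45 and −3.41 in IV. Tcf7 plus Lef1 to CD3 was 0.95, 0.23 and 0.31 in PBS, −1.53, −1.26 and −1.57 in IP, and 0.21, −0.63 and −0.70 in IV. In both, all IP libraries stood below all others. However, 83.4% of all genes lay below PBS in IP by their ratio to CD3. The levels of Foxp3, Tcf7 and Lef1 themselves did not pass the test in IP (0.05, −0.06 and 0.34). Cd8a plus Cd8b1 to CD3 was −1.27, −0.87 and −0.51 in PBS, −0.16, −0.09 and −0.08 in IP, and −1.32, −1.31 and −0.71 in IV. Here the IP libraries were the highest of all and IV overlapped PBS (difference −0.23). Cd4 to CD3 was −1.07, −1.58 and −1.54 in PBS, −4.15, −4.45 and −4.17 in IP, and −2.51, −2.27 and −1.74 in IV. Its IP libraries were the lowest of all. Each separation of IP from another group had p = 0.1 in the exact permutation test, 0.125 adjusted. IV also lay below PBS without overlap for Cd4 (difference −0.78) and for Tcf7 plus Lef1 (−0.87), with the same p-values. Against CD3, 57.3% of all genes lay below PBS in IV.

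**Figure D3:**
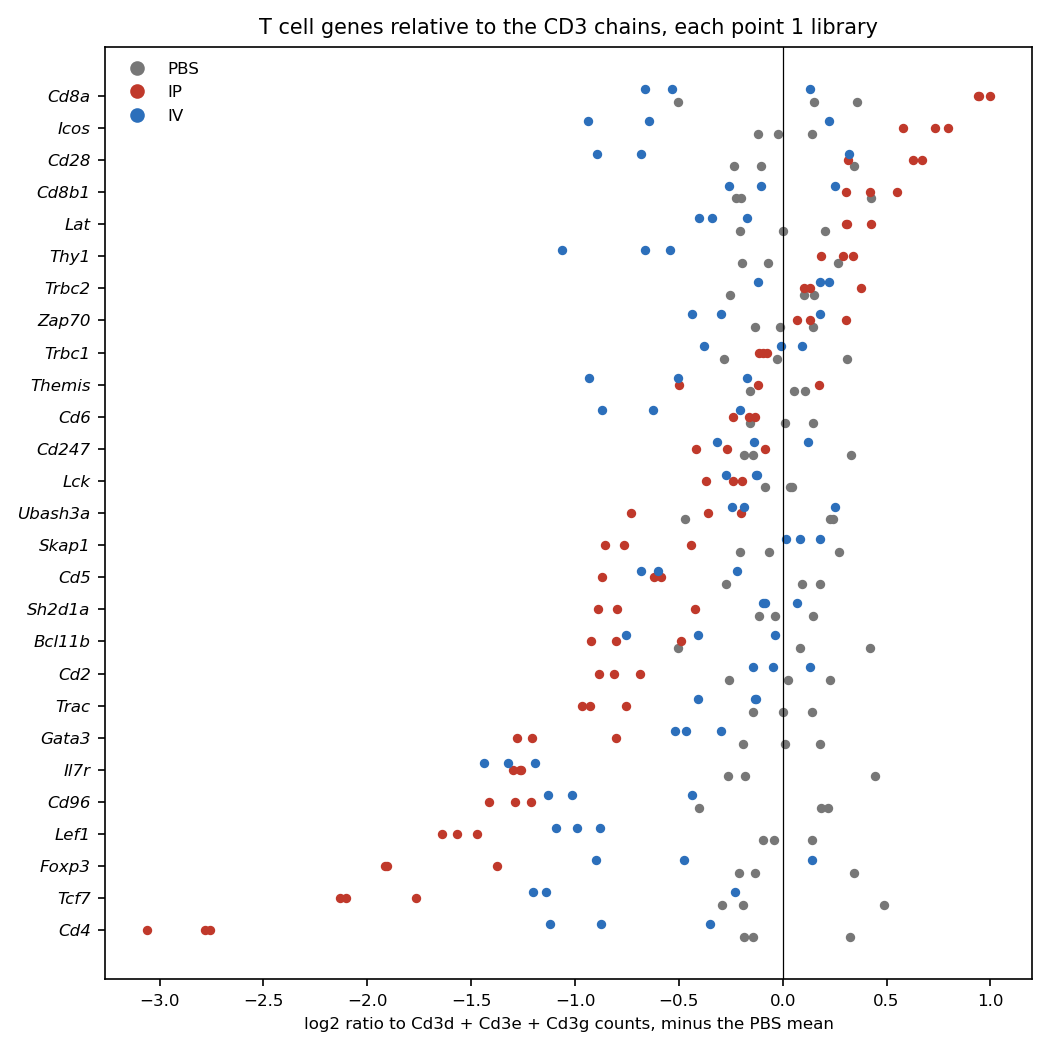
Log2 ratio of each of the 27 other T cell genes to the summed counts of Cd3d, Cd3e and Cd3g, minus the PBS mean, 1 point a library. The IP points move from 0.96 above PBS on average for Cd8a to 2.87 below for Cd4, and PBS and IV points overlap for most genes.

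Other genes of the pathway were counted from a list of 32 T cell receptor signalling genes outside the members. Here and for the lists that follow, the shares of all genes to set beside the counts are 18.7% higher and 14.2% lower in IP. They are 10.4% and 5.66% in IV, and 5.93% and 4.47% for IP against IV. For counts without IV 4 they are 13.2% and 12.8% in IV, and 9.71% and 6.61% for IP against IV. Of the 32 genes, 15 rose and 2 fell in IP (median log2 fold change 0.63). In IV 13 rose and none fell (0.77), or 10 and 3 without IV 4. Lcp2, the adaptor SLP-76 that myeloid cells use too, rose by 2.38 ± 0.28 in IP and 1.64 ± 0.28 in IV, and Cblb, a ubiquitin ligase that restrains receptor signalling, by 1.59 ± 0.19 in IP. The 2 that fell in IP were Plcg1, a phospholipase (−0.63, adjusted p = 0.00598), and Nfatc2, a calcium-dependent factor (−1.01, 0.000787), both named for their direction after their values were seen.

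Genes induced by receptor stimulation were counted in the same way. Of 15 tested, 10 rose and 2 fell in IP, 7 rose and none fell in IV, and 6 were higher and 1 lower in IP than in IV. Without IV 4, 5 rose in IV, and 5 were higher and 1 lower in IP than in IV. Tnfrsf9 (4-1BB) was 1.72, 5.18 and 6.48 CPM in PBS, 117, 103 and 90.3 in IP, and 10.9, 13.1 and 11.2 in IV. It was higher in IP than in IV by 3.16 ± 0.37 (adjusted p = 0.000824). Il2ra, the inducible IL-2 receptor chain that regulatory cells carry as well, was 1.26, 2.84 and 6.97 CPM in PBS, 110, 95.0 and 85.7 in IP, and 7.82, 14.5 and 18.5 in IV. The 2 that fell in IP were Nr4a1 (−1.04) and Nr4a3 (−1.28), immediate early factors that other cells use too, named after their values were seen.

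Effector, regulatory and naive lists followed. Of 16 effector CD8 genes, 12 rose and 1 fell in IP and 11 rose and none fell in IV (12 and 1 without IV 4), and their summed level was 285 to 336 CPM in PBS, 1766 to 2183 in IP and 479 to 654 in IV. Ifng and Gzmb, the cytokine and the protease of cytotoxic cells, made up most of that sum in IP, at 715 and 565 CPM on average, and were higher in IP than in IV by 5.76 ± 0.61 and 4.01 ± 0.47. In PBS most of the sum was Id2 and Zeb2, at 110 and 119 CPM on average, both named after their values were seen. In IV they averaged 147 and 96.8 CPM. Between routes, 4 of the 16 effector genes were higher and 1 lower in IP (6 and 1 without IV 4). Of 11 regulatory T cell genes other than Foxp3, 7 rose in IP and 3 in IV (2 without IV 4), with none lower, and 3 were higher in IP than in IV. The leading ones in IP, Il2ra (4.69 ± 0.57) and Tnfrsf18 (2.13 ± 0.27), are also induced on activated T cells. Of 11 further naive and recirculation genes, 4 rose and 1 fell in IP and 5 rose and none fell in IV (4 without IV 4). Ccr7, a chemokine receptor of recirculating cells, rose in IV by 1.83 ± 0.37, while Igfbp4, which stromal cells express too, was the gene that fell in IP (−1.22 ± 0.13).

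Markers of other cells moved with some of these results, and the shares of all genes called are those given above. Melanoma genes, summed, were 25236 to 28132 CPM in PBS, 13441 to 15141 in IP and 18041 to 23385 in IV, with 5 of 7 lower in IP and 3 of 7 lower in IV than in PBS (2 of 7 without IV 4). B cell genes, summed, were 66.8 to 82.8 CPM in PBS, 49.6 to 77.8 in IP and 150.2 to 543 in IV, with 9 of 10 higher in IV than in PBS, with or without IV 4, and 2 of 10 lower in IP. NK cell genes, a source of Cd247, Lck, Zap70, Cd2, Skap1, Sh2d1a and Cd96 transcripts too, were 21.8 to 66.2 CPM in PBS, 119 to 121 in IP and 94.5 to 249 in IV, with 3 of 12 higher in IP and 4 of 12 in IV (5 without IV 4). The list had a median log2 fold change of −0.03 in IP. There Klrk1, which activated CD8 T cells carry too, made up 51.4 CPM of the sum on average and Gzma 40.2. Gzma and Eomes stand in the effector CD8 list as well. The NK receptor Ncr1 was 1.07 to 3.21 CPM in PBS, 1.45 to 1.65 in IP and 3.82 to 14.5 in IV. Gamma-delta T cell genes were 4.37 to 9.44, 10.4 to 11.1 and 14.0 to 31.6 CPM, with 0 of 6 higher in IP and 3 of 6 in IV, and Il17a was at 0 in every library. Innate lymphoid genes, which share Gata3, Il7r and Thy1 with T cells, were 20.7 to 27.5, 35.1 to 39.1 and 24.1 to 29.9 CPM. Macrophage genes were 823 to 1358 CPM in PBS, 2649 to 2971 in IP and 1868 to 2788 in IV. Of the 8, 6 were higher and 1 lower in IP than in PBS, and 3 were higher in IV, with or without IV 4. Most of the sum was Lyz2, at 648 CPM in PBS, 1885 in IP and 1821 in IV on average. Adgre1 averaged 60.0 CPM in PBS and 59.3 in IP. No B, NK or macrophage marker was at 0 in any library. The part of these cells in the results was not tested.

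**Figure D4:**
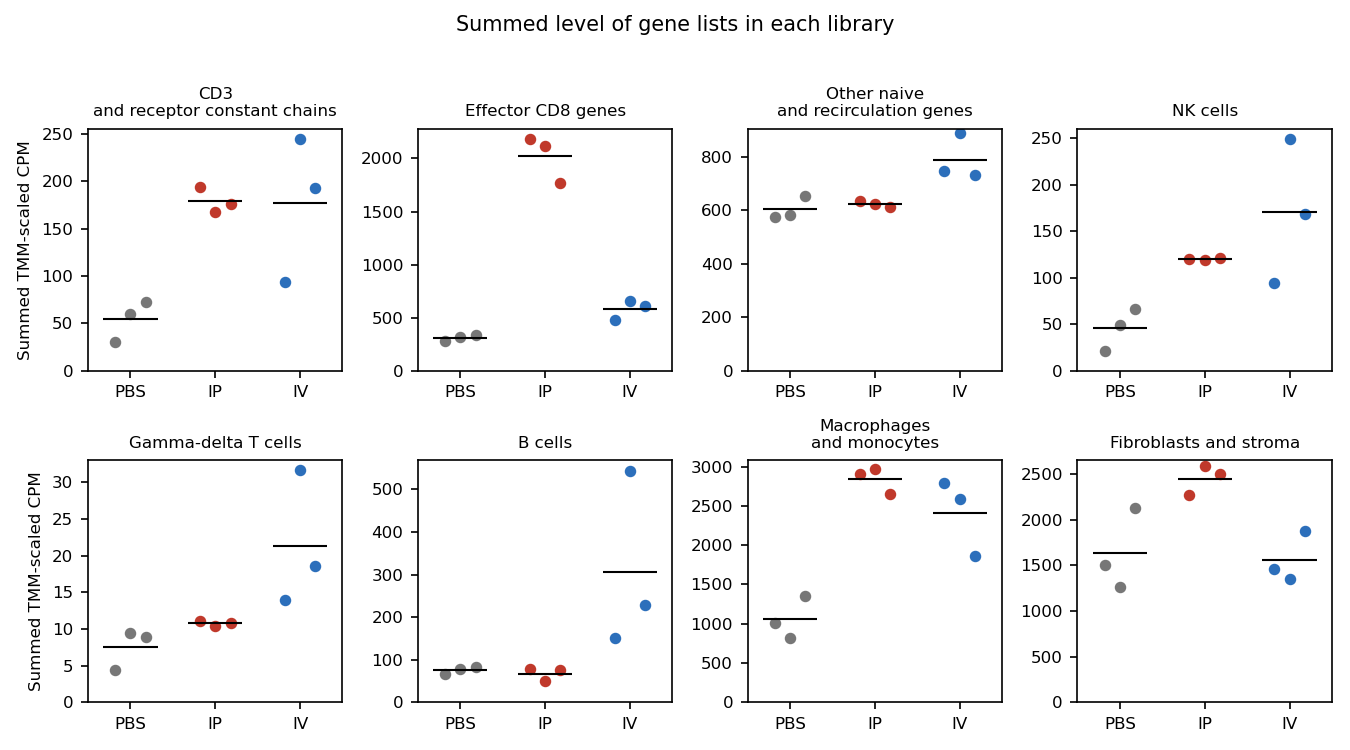
Summed TMM-scaled CPM of gene lists in each library, with a line at the mean of 3 mice. B cell genes are above PBS in the IV libraries alone, effector CD8 genes are highest in IP (1766 to 2183 CPM), and the receptor chains are above PBS for both routes.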

How the data were processed

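Directional poly(A) libraries were sequenced from both fragment ends, per the labels' protocols. The submitters' processing notes name STAR 2.7.9, featureCounts, limma and mm39, without roles. An annotation release and a strand setting were not given in the sources used here. Used unchanged was the deposited table of counts (55359 genes, 9 libraries). The authors' second table, log2 CPM of 18833 genes, equalled log2((count + 0.5) / (total + 1) × 1e+06), totals being over its own genes, to within 5e-14 and served only in an alternative.

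Counts were tested with edgeR 4.0.16 (R 4.3.3): filterByExpr, TMM, 1 robust quasi-likelihood fit of all 9 libraries without covariates, two-sided, Benjamini-Hochberg adjustment over 17123 genes, threshold 0.05. The standard error of a log2 fold change (first group minus second) is its size over the square root of F. With 3 mice a group, edgeR's p-values set a difference against a spread between mice estimated from all 9 libraries. A result for IP against PBS thus depends on the IV mice too. Within-library ratios were compared by exact permutation. Alternatives (20) included DESeq2 1.42.0, limma 3.58.1, other filters and scalings, and each library left out, and 1 was added after seeing the data. Scripts were tested on simulated data. No pair of libraries agreed within sampling noise (smallest chi-square per degree of freedom 7.09).

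Symbols and exon lengths came from GENCODE M21, matching all 31 members, and promoters from RefSeq (GRCm38.p6), an older build than mm39. Members and lists were chosen with earlier results of these data known. All members were reported, with up to 3 genes by smallest p for each further list and comparison; others are named as chosen later, or as markers. A gene that this rule covers is not reported here. Trbc1 and Trbc2 share sequence, and Foxp3, Cd247, Sh2d1a, Lef1 and Ptprcap overlap other genes. Their counts may hold reads of others or miss some of their own.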

Additional observations from a re-analysis of the deposited data

Results flagged for a closer look

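The effect of T cells given IP and given IV differed by edgeR's test of the routes against each other for 3 T cell identity genes: Cd4 (log2 fold change IP minus IV −2.04, adjusted p = 0.0121), Tcf7 (−0.92, 0.0129) and Thy1 (1.2, 0.0164). Among the named signalling genes Cblb (0.82, 0.0182) and Bcl10 (0.53, 0.0288) differed, both higher in IP. Among the named activation genes Tnfrsf9 (3.16, 0.000824) and Il2ra (2.83, 0.0102) were higher in IP. Igfbp4 of the naive list was lower in IP (−1.22, 0.00053) and Lrrc32 of the regulatory list higher (1.33, 0.0028). Of the effector genes, Ifng (5.76, 0.000824) and Gzmb (4.01, 0.000861) were higher in IP. IV 4, the IV library most like PBS, enters all of these differences.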

How the results depend on the processing

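Over 20 alternatives, 1563 of 1800 single-gene values kept their side of the threshold, 182 lost a call and 55 gained one; 38, none of them a call, changed sign. The 21 members higher in IP than in PBS became 11 with no filter on low counts (8.05% of all genes), and 16 to 24 with each library left out. The count lower in IP, 0, became 1 (Cd4) in a fit of only those groups, under the replicate block and without the acinar-rich libraries, and was 0 to 1 with each library left out. The 20 members higher in IV became 8 with no filter (4.07% of all genes called higher), 9 in a fit of only those groups (5.66%), 0 without the acinar-rich libraries, where 0 of 18200 genes were called, and 4 to 29 with each library left out. The 1 member higher in IP than in IV became 2 under the block, 3 with acinar level as a covariate, 0 without the acinar-rich libraries and 0 to 3 with each library left out. The 2 lower became 1 with no filter, 1 by limma voom, 5 under the block, 1 without the acinar-rich libraries and 0 to 2 with each library left out. Leaving out the acinar-rich libraries (IP 4, IV 1 and IV 2) was chosen after seeing the data; it leaves IV 4 as the lone IV library, assumed to vary like the others. The cause of these shifts was not tested. With the replicate number as a block, 20 members were higher in IP and 26 in IV than in PBS. The labels do not tie equal numbers together, and deviations of same-numbered libraries correlated at −0.399 to 0.1. Low members such as Foxp3 rest on few reads (37 in IV 2). With counts thinned to the shallowest library, the Foxp3 difference of IV from PBS passed the threshold.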
